A study of Homo sapiens with 12 samples.

Results

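The collagen genes were the 43 genes of the table whose symbol has the form COL, a type number, A and a chain number, out of 38516 genes listed. The search gave 44 genes and COL17A1, the transmembrane collagen of the hemidesmosome, was set aside. The set was selected on the rise of COL5A1 RPKM in HCP5-silenced KYSE510 cells, so silenced against control in KYSE510 is given as a description with no test. The tests reported are silenced against control in KYSE150 and the comparison of the 2 cell lines, which does not use that difference. HCP5 is a long non-coding RNA of the major histocompatibility complex, and the study compared cells in which it was silenced with control cells. KYSE150 and KYSE510 are established human lines of esophageal squamous cell carcinoma (ESCC). Each line gave 3 libraries labelled control and 3 labelled HCP5-silenced, 12 libraries in 4 groups, from total RNA of cells grown in RPMI-1640 with 10% FBS. All of the sample names begin with sh, but the labels do not describe the silencing reagent, how many hairpins were used or whether replicates were separate cultures. The p-values below therefore measure only the spread between these libraries, which may be technical.

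Collagens are matrix proteins built from chains that wind into a triple helix, and each type uses its own set of chains. Fibrillar collagens form the fibres of connective tissue, type IV collagen forms the sheet-like network of basement membranes, type VII forms the anchoring fibrils that fasten a stratified epithelium to the tissue below, and fibril-associated collagens decorate the fibres. In the esophagus the squamous epithelium makes basement membrane and anchoring fibril components, while most fibrillar collagen comes from fibroblasts of the underlying tissue. Because each library is bulk RNA, fewer cells of a type and less RNA per cell cannot be told apart.

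Levels are RPKM, reads scaled to exon length in kilobases and to the library's counted reads, and read counts were recovered exactly from them. The libraries held 20035025 to 28202422 counted reads, and all 3 silenced KYSE150 libraries were deeper than the KYSE150 controls. The share of reads on mitochondrially encoded genes was 7.49% to 8.91% for KYSE150 libraries and 10.2% to 11.5% for KYSE510 libraries. HCP5 (chr6:31400702-31477506, GRCh38, plus strand) stood at 0.779, 0.745 and 0.786 RPKM in KYSE150 control replicates 1 to 3 and at 0.315, 0.418 and 0.579 in the silenced ones. In KYSE510 it stood at 0.914, 1.85 and 1.40 (controls) and at 0.505, 0.951 and 0.948 (silenced). The silenced libraries lay below every control in KYSE150, and in KYSE510 the groups overlapped at replicate 1 of the controls. Neither difference passed the test (limma, Benjamini-Hochberg adjusted p = 0.267 in KYSE150 and 0.646 in KYSE510, or 0.0556 and 0.134 with a replicate block). Of 8 squamous epithelial markers, 7 had group means above 1 RPKM in KYSE150 (all but SOX2) and 8 in KYSE510. Of 10 fibroblast markers other than collagens, 9 were below 0.1 RPKM in KYSE150 (all but PDPN) and 8 in KYSE510 (all but PDPN and FAP). Their summed level ran from 4.11 to 4.76 in KYSE150 controls, 4.73 to 6.76 in KYSE150 silenced, 3.46 to 3.97 in KYSE510 controls and 4.31 to 4.73 in KYSE510 silenced libraries. The fibroblast markers PDGFRA, PDGFRB, DCN and LUM were below 0.1 RPKM in all 4 groups, as was the white blood cell marker PTPRC. Among 4 endothelial markers, CDH5 alone exceeded 1 RPKM, and only in KYSE510. The 3 white blood cell markers summed to 29.7 to 47.1 RPKM, nearly all of it CD68, a lysosomal gene whose exons overlap those of RP11-186B7.4.

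Of the 43 collagen genes, 17 reached 0.5 RPKM in at least 3 libraries and were tested, and 16 had a mean of at least 1 RPKM in some group. Basement membrane genes held the largest mean class sum in KYSE150 and COL7A1, the anchoring fibril gene, in KYSE510, where fibrillar genes that were nearly silent in KYSE150 were also measured. The collagen genes summed to 82.1 ± 6.62 RPKM in KYSE150 controls, 87.4 ± 6.64 in KYSE150 silenced, 109.2 ± 7.20 in KYSE510 controls and 123 ± 8.76 in KYSE510 silenced libraries (SD, n = 3 each). In reads this was 0.0769%, 0.0814%, 0.109% and 0.123% of each group's libraries on average. The 6 type IV genes summed to 42.0 ± 4.52 RPKM in KYSE150 controls and 17.4 ± 2.06 in KYSE510 controls. Fibrillar genes went the other way, with 2.14 ± 0.484 RPKM in KYSE150 controls and 23.0 ± 2.63 in KYSE510 controls. No class sum was tested.

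**Figure D1:**
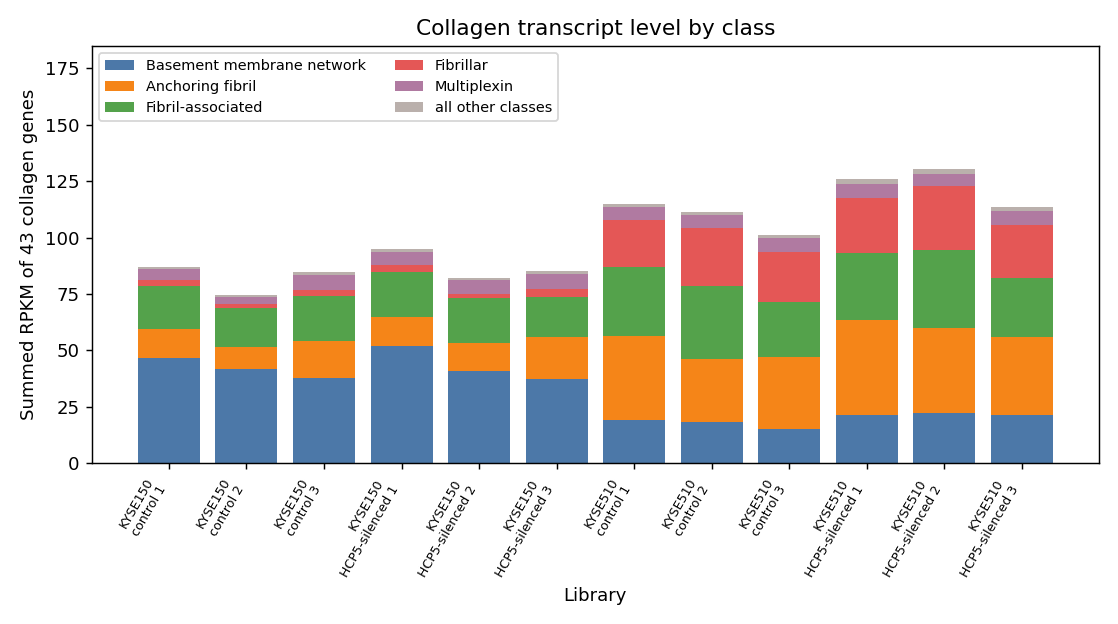
Summed RPKM of the 43 collagen genes in each of the 12 libraries (bars start at 0, colours stand for collagen classes). Basement membrane genes take the largest segment in all KYSE150 libraries, and the fibrillar segment is wide in KYSE510 only.

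The type IV genes lie in 3 head-to-head pairs that are transcribed away from each other. RefSeq start sites lie 127 bases apart for COL4A1 and COL4A2 on chromosome 13, 419 apart for COL4A4 and COL4A3 on chromosome 2, and 380 apart for COL4A6 and COL4A5 on the X chromosome. The promoter of the plus-strand gene of each pair is shown because the members of a pair stood high in the same line, and that of COL5A1 because it is the gene that brought the set forward. Each window runs from 250 bases before the RefSeq start site to 50 after it (GRCh38.p14, plus strand), with capitals for GC boxes (GGGCGG or CCGCCC) and CCAAT boxes (CCAAT or ATTGG) on either strand.
COL4A2, chr13:110307034-110307333: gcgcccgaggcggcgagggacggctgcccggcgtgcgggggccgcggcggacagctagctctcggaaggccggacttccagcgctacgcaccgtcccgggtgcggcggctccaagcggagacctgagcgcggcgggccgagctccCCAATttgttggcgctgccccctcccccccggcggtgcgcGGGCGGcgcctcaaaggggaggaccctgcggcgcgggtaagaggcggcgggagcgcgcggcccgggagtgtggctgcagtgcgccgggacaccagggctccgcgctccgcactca
COL4A3, chr2:227164374-227164673: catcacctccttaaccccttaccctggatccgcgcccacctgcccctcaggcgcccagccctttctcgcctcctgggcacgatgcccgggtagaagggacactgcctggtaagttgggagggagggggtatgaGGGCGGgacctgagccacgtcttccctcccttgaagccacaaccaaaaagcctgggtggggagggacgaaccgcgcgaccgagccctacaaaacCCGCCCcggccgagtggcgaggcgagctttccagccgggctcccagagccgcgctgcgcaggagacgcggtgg
COL4A5, chrX:108439588-108439887: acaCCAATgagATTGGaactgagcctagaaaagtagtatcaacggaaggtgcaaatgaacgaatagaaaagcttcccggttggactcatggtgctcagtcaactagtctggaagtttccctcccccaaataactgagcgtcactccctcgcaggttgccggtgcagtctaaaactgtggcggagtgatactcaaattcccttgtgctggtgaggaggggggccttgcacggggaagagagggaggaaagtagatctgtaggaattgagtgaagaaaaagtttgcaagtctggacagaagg
COL5A1, chr9:134641553-134641852: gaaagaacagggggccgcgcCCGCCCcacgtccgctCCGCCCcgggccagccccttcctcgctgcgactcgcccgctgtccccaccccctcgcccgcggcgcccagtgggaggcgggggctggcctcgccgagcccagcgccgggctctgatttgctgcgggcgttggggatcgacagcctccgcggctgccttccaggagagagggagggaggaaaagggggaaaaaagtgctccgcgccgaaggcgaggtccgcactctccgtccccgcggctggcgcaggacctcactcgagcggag
The COL4A2 window held 1 GC box and 1 CCAAT box, with 45 CG dinucleotides and 77.7% G or C. In COL4A3 there were 2 GC boxes, no CCAAT box and 24 CG dinucleotides. The COL4A5 window differed in make-up, with no GC box, 2 CCAAT boxes, 8 CG dinucleotides and 49.3% G or C. COL5A1 had 2 GC boxes, no CCAAT box and 36 CG dinucleotides. Over all 35116 RefSeq windows of this length, 44.95% held a GC box, 34.61% a CCAAT box and 11.53% a TATA box (TATAAA or TTTATA), and the median window had 14 CG dinucleotides. No TATA box was found in these 4 windows. A match is a run of letters only, and windows were present for 31 of the 43 genes.

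COL4A1 and COL4A2 encode the chains of the network found in nearly all basement membranes, and both were higher in KYSE150. COL4A1 (chr13:110148963-110307149, minus strand) had 17.8, 16.3 and 12.5 RPKM in KYSE150 controls, 19.2, 13.4 and 12.7 in KYSE150 silenced, 6.01, 5.57 and 4.46 in KYSE510 controls, and 6.22, 6.58 and 6.09 in KYSE510 silenced libraries. Every KYSE150 library lay above every KYSE510 library. Over 6 libraries a line the means were 15.3 ± 2.85 and 5.82 ± 0.743 RPKM (SD), 2.63-fold higher in KYSE150. The difference on the log2(RPKM + 0.5) scale, KYSE510 minus KYSE150, was -1.31 (SE 0.12, limma adjusted p = 1.28e-06). COL4A2 (chr13:110305812-110513027, plus strand) read 27.2, 23.7 and 23.3 RPKM in KYSE150 controls, 30.5, 25.5 and 21.8 in KYSE150 silenced, 8.16, 6.91 and 5.41 in KYSE510 controls, and 10.1, 9.09 and 9.72 in KYSE510 silenced libraries. Again the lines did not overlap, and KYSE150 was 3.08-fold higher (log2 difference -1.58, SE 0.10, limma adjusted p = 7.18e-08). The ratio of COL4A1 to COL4A2 was 0.626 ± 0.0802 in KYSE150 controls, 0.578 ± 0.0522 in KYSE150 silenced, 0.789 ± 0.0461 in KYSE510 controls and 0.655 ± 0.0591 in KYSE510 silenced libraries.

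The other 2 type IV pairs stood higher in KYSE510. COL4A4, a chain of the network of the kidney filter and inner ear (chr2:227002711-227164113, minus strand), had 15 reads in the 6 KYSE150 libraries and 1763 in the 6 KYSE510 libraries. Its level was 0.00504, 0.00985 and 0.0312 RPKM in KYSE150 controls, 0.00769, 0.00717 and 0.00375 in KYSE150 silenced, 0.937, 1.40 and 1.35 in KYSE510 controls, and 1.14, 1.35 and 1.10 in KYSE510 silenced libraries. COL4A4 was thus near 0 in 1 line and close to 1 RPKM in the other (log2 difference 1.74, SE 0.09, limma adjusted p = 8.00e-09). Its partner COL4A3, which was below the level tested, had 24 reads in KYSE150 and 457 in KYSE510, and its ratio to COL4A4 in KYSE510 was 0.293 ± 0.0162 in controls and 0.266 ± 0.0768 in silenced libraries.

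COL4A5 and COL4A6 encode the chains of a network beneath the epidermis and in smooth muscle. COL4A5 (chrX:108439844-108697545, plus strand) had 1.03, 1.03 and 1.20 RPKM in KYSE150 controls, 1.57, 1.30 and 1.82 in KYSE150 silenced, 2.76, 2.76 and 2.70 in KYSE510 controls, and 2.75, 3.32 and 2.90 in KYSE510 silenced libraries. All KYSE510 libraries lay above all KYSE150 libraries (log2 difference 0.90, SE 0.08, limma adjusted p = 7.38e-07). COL4A6 (chrX:108155607-108439497, minus strand) read 0.618, 0.645 and 0.607 RPKM in KYSE150 controls, 0.844, 0.730 and 0.951 in KYSE150 silenced, 0.896, 1.12 and 0.767 in KYSE510 controls, and 1.15, 1.46 and 1.23 in KYSE510 silenced libraries. Here the lines overlapped, and the difference was the smallest of those past the threshold among the 17 tested genes (log2 difference 0.37, SE 0.08, limma adjusted p = 0.00166).

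Type V collagen controls the width of type I fibres. Among the 11 fibrillar genes, its chains COL5A1 and COL5A2 differed most between the lines, both higher in KYSE510. Both reached 0.5 RPKM in KYSE510 only and so passed the filter through that line. COL5A1 (chr9:134641774-134844843, plus strand), the chain found in nearly all type V molecules, was at 0, 0.00435 and 0.0236 RPKM in KYSE150 controls, 0, 0 and 0.00663 in KYSE150 silenced, 2.98, 2.62 and 2.54 in KYSE510 controls, and 4.72, 4.53 and 4.43 in KYSE510 silenced libraries. The 6 KYSE150 libraries held 9 COL5A1 reads together, which gives 0.00556 RPKM with a 95% Poisson interval of 0.00254 to 0.0106, and the 6 KYSE510 libraries held 5897. Such intervals cover counting error only. The log2 difference was 2.99 (SE 0.06, limma adjusted p = 4.53e-12), a size that ran from 2.18 to 9.59 over the alternatives because KYSE150 is near 0 and the pseudocount sets the scale. No weight is put on that p-value. COL5A1 was picked for its rise in silenced KYSE510 libraries, which enter this comparison, and it passed the filter through KYSE510. COL5A2 (chr2:189031896-189179879, minus strand), the partner chain, read 0.146, 0.293 and 0.129 RPKM in KYSE150 controls, 0.165, 0.124 and 0.119 in KYSE150 silenced, 13.2, 17.7 and 14.3 in KYSE510 controls, and 15.9, 19.0 and 14.6 in KYSE510 silenced libraries. COL5A2 was 97.0-fold higher in KYSE510 by the line means of 0.163 ± 0.0659 and 15.8 ± 2.24 RPKM (log2 difference 4.61, SE 0.10, limma adjusted p = 5.06e-12). COL5A1 stayed below COL5A2 in KYSE510, at a ratio of 0.184 ± 0.0396 in controls and 0.280 ± 0.0363 in silenced libraries.

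COL5A3, the third type V chain, stood in the opposite order. COL5A3 (chr19:9959561-10010471, minus strand) had 0.843, 0.267 and 0.927 RPKM in KYSE150 controls, 1.79, 0.683 and 1.98 in KYSE150 silenced, 0.0801, 0.0703 and 0.108 in KYSE510 controls, and 0.198, 0.133 and 0.423 in KYSE510 silenced libraries. Replicate 2 was the lowest of its group in all 4 groups, and the lines overlapped at the edge. The log2 difference between lines was -1.15 (SE 0.21, limma adjusted p = 0.000396). Its exons share 270 bases, 4% of their length, with CTD-2553C6.1 on the opposite strand, and whether counting used strand is not given in the sources used here.

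Of the other fibrillar genes, COL27A1 and COL1A1 were also higher in KYSE510. COL27A1 (chr9:114155560-114312511, plus strand), a thin-fibril collagen known from cartilage, had 0.810, 0.602 and 0.901 RPKM in KYSE150 controls, 0.631, 0.479 and 0.673 in KYSE150 silenced, 3.40, 4.37 and 3.95 in KYSE510 controls, and 2.68, 3.69 and 3.26 in KYSE510 silenced libraries. The lines did not overlap and KYSE510 was 5.21-fold higher (log2 difference 1.78, SE 0.10, limma adjusted p = 1.73e-08). COL1A1 (chr17:50183289-50201632, minus strand), the main chain of the body's most plentiful collagen, was low everywhere, at 0.126 ± 0.0413 RPKM in KYSE150 and 0.592 ± 0.115 in KYSE510 (SD, n = 6 each; log2 difference 0.80, SE 0.09, limma adjusted p = 8.40e-06). Its partner COL1A2 had 3 reads in all KYSE150 libraries and 5 in all KYSE510 libraries. COL1A2 was thus a trace in both lines, and COL3A1, near COL5A2 on chromosome 2, had 1 read in KYSE150 and 73 in KYSE510.

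COL7A1 (chr3:48564073-48595267, minus strand), the single chain of the anchoring fibrils, was the highest collagen gene in KYSE510. It stood at 12.9, 9.95 and 16.6 RPKM in KYSE150 controls, 12.8, 12.2 and 18.4 in KYSE150 silenced, 37.4, 27.9 and 32.1 in KYSE510 controls, and 41.8, 37.9 and 34.4 in KYSE510 silenced libraries. The lines were separate, with KYSE510 2.55-fold higher (log2 difference 1.34, SE 0.14, limma adjusted p = 3.62e-06).

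Fibril-associated collagens included genes that differed little and genes that differed widely between the lines. COL12A1 (chr6:75084326-75206051, minus strand), which binds type I fibres, had 14.1, 12.9 and 13.0 RPKM in KYSE150 controls, 15.0, 13.9 and 11.2 in KYSE150 silenced, 20.0, 21.5 and 14.9 in KYSE510 controls, and 18.8, 20.3 and 17.0 in KYSE510 silenced libraries. KYSE510 was 1.41-fold higher with a slight overlap (log2 difference 0.47, SE 0.10, limma adjusted p = 0.00117). COL16A1 (chr1:31652247-31704319, minus strand), found near fibres and basement membranes, had 0.253, 0.294 and 0.423 RPKM in KYSE150 controls, 0.349, 0.379 and 0.520 in KYSE150 silenced, 8.67, 7.22 and 6.84 in KYSE510 controls, and 8.99, 10.2 and 7.51 in KYSE510 silenced libraries. COL16A1 was 22.3-fold higher in KYSE510 with a wide gap between the lines (log2 difference 3.32, SE 0.10, limma adjusted p = 7.64e-11).

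COL9A2 and COL9A3, 2 of the 3 chains of cartilage type IX collagen, stood in opposite orders. COL9A2 (chr1:40300487-40317816, minus strand) had 0.253, 0.188 and 0.276 RPKM in KYSE150 controls, 0.266, 0.367 and 0.250 in KYSE150 silenced, 1.52, 2.61 and 1.93 in KYSE510 controls, and 1.45, 2.85 and 1.37 in KYSE510 silenced libraries. COL9A3 (chr20:62816244-62841159, plus strand) had 4.23, 3.57 and 5.95 RPKM in KYSE150 controls, 4.13, 5.27 and 5.85 in KYSE150 silenced, 0.318, 0.958 and 0.572 in KYSE510 controls, and 0.535, 0.804 and 0.383 in KYSE510 silenced libraries. Neither gene overlapped between the lines. COL9A2 was 7.34-fold higher in KYSE510 (log2 difference 1.64, SE 0.15, limma adjusted p = 1.61e-06). COL9A3 was 8.12-fold higher in KYSE150 (log2 difference -2.29, SE 0.17, limma adjusted p = 1.93e-07). COL9A1, the remaining chain, had 0 reads in KYSE150 and 2 in KYSE510.

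COL18A1 and COL28A1 complete the tested genes. COL18A1 (chr21:45405137-45513720, plus strand), a basement membrane collagen whose end fragment is endostatin, had 5.12, 3.28 and 6.93 RPKM in KYSE150 controls, 6.09, 6.09 and 6.89 in KYSE150 silenced, 5.92, 5.64 and 6.09 in KYSE510 controls, and 6.30, 5.66 and 5.98 in KYSE510 silenced libraries. All groups overlapped, and the log2 difference between lines was 0.08 (SE 0.13, limma adjusted p = 0.599). It turned to -0.05 without replicate 2 of the KYSE150 controls, the lowest library, and to -0.08 in silenced libraries alone. COL18A1 shares 1401 exon bases, 16.4% of its length, with SLC19A1 on the opposite strand, so reads of the 2 genes may be mixed. COL28A1 (chr7:7356203-7535853, minus strand), a collagen with the adhesive domains known from von Willebrand factor, had 0.468, 0.559 and 0.532 RPKM in KYSE150 controls, 0.540, 0.573 and 0.588 in KYSE150 silenced, 0.785, 1.05 and 0.879 in KYSE510 controls, and 1.44, 1.68 and 1.05 in KYSE510 silenced libraries. The KYSE510 libraries all lay above the KYSE150 libraries (log2 difference 0.63, SE 0.09, limma adjusted p = 6.33e-05).

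**Figure D2:**
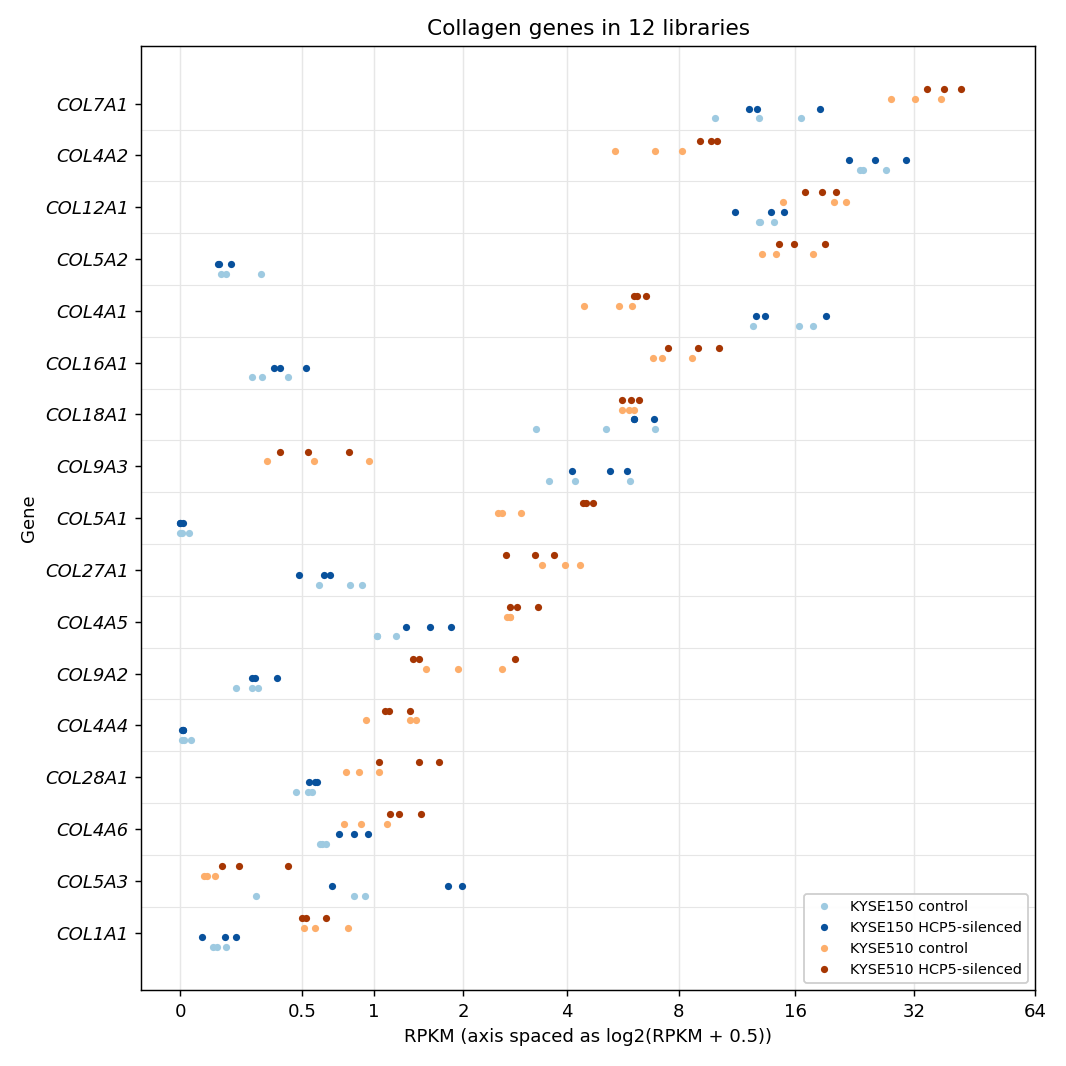
RPKM of the 17 tested collagen genes in each library (1 point per library, colours stand for the 4 groups, the axis is spaced as log2(RPKM + 0.5)). COL5A1, COL5A2, COL16A1 and COL4A4 show a wide gap between KYSE150 and KYSE510, while COL18A1 overlaps in all groups.

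The 26 collagen genes that were not tested all had group means of at most 0.361 RPKM (COL4A3), and 8 of them had fewer than 10 reads over the 12 libraries. All 5 type VI genes, which form beaded filaments in connective tissue, were among them. COL6A1 had 194 reads in KYSE150 and 194 in KYSE510, and COL6A3 had 5 in each line. The transmembrane collagen COL13A1 had 157 reads in KYSE150 and 2 in KYSE510, and COL20A1, a fibril-associated gene on chromosome 20 like COL9A3, had 354 and 2. COL11A2, a cartilage fibrillar chain, had 279 reads in KYSE150 and 119 in KYSE510, and its partner COL11A1 had 12 and 362. COL8A1 and COL8A2, chains of the hexagonal network of vessels and cornea, had 4 and 2 reads in KYSE150 and 88 and 36 in KYSE510, and the transmembrane COL23A1 had 2 and 74. All of these genes were below the level tested, and a level that rests on a few reads is a trace.

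Between the lines, collagen genes differed in both directions, with COL5A1, COL5A2, COL7A1, COL16A1 and COL27A1 higher in KYSE510 and COL4A1, COL4A2, COL5A3 and COL9A3 higher in KYSE150. Over all 17823 genes tested, 72.8% passed the limma threshold of 0.05 in this comparison (30.1% higher and 42.7% lower in KYSE510). Of the 17 tested collagen genes 16 passed, 12 higher and 4 lower in KYSE510, and the exception was COL18A1. Of the 17, 6 reached the minimum level in 1 line only (COL5A3 in KYSE150, and COL5A1, COL5A2, COL4A4, COL9A2 and COL1A1 in KYSE510), and COL16A1 reached it in all 6 KYSE510 libraries but 1 KYSE150 library. These genes passed the filter through the line where they are high, so nothing is read from the count over the 17 or from their p-values between the lines. Among the other 10 genes, which reached the minimum in at least 3 libraries of each line, 9 passed, 6 higher in KYSE510 and 3 higher in KYSE150, beside the 72.8% over all genes. Of these 10, 4 had every KYSE510 library above every KYSE150 library, where 21.4% of all genes did, and 3 had the reverse, where 29.5% did. The shares over all genes include genes that reached the minimum in 1 line only, so they are not a matched background for these 10.

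**Figure D3:**
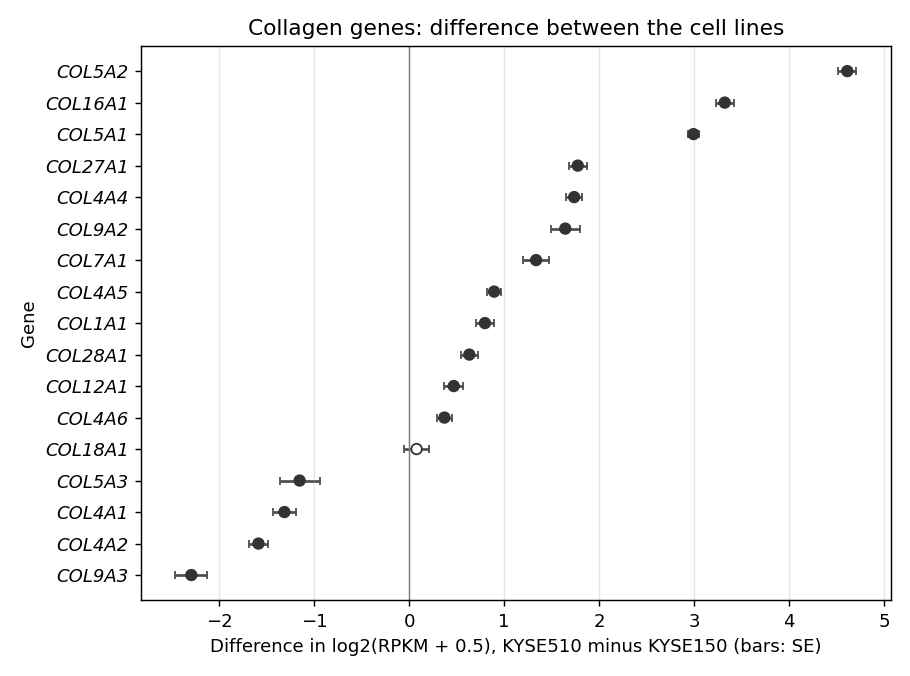
Difference between the lines for each tested collagen gene on the log2(RPKM + 0.5) scale, KYSE510 minus KYSE150, with bars of 1 SE (filled points passed the limma test). COL5A2 lies farthest to the right at 4.61, COL9A3 farthest to the left at -2.29, and COL18A1 near 0 is the open point.

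In silenced KYSE150 cells the tested collagen genes changed by -0.21 (COL27A1) to 0.73 (COL5A3) on the log2 scale. None of the 17 passed the limma test (0.499% of all genes did, 67 higher and 22 lower, a split that turned to 54 and 62 with median centring and 77 and 77 with quantile normalization). At an unadjusted p below 0.05 there were 2, COL4A5 and COL5A3, beside 3224 of the 17823 genes. The median change was 0.07 on the log2 scale for the tested collagen genes and 0.08 for all genes, with 11 of 17 upward against 66.1% of all genes. Median centring moved the median over all genes to -0.05. Same-numbered libraries deviated together, and with the replicate number as a block COL4A5 and COL5A3 passed, 2 of 17 where 6.7% of all genes did.

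COL4A5 and COL4A6, the head-to-head pair on the X chromosome, were the 2 tested collagen genes with every silenced KYSE150 library above every control (13.7% of all genes were so placed, and 5.47% had all silenced libraries lower, with no collagen gene among the tested 17). COL4A5 went from 1.09 ± 0.101 to 1.57 ± 0.263 RPKM (SD, n = 3), 1.44-fold, with a log2 change of 0.37 (SE 0.11, limma adjusted p = 0.132, or 0.0457 with the replicate block). Over the alternatives that adjusted p ran from 0.00628 to 0.422. COL4A6 went from 0.624 ± 0.0196 to 0.842 ± 0.111 RPKM, 1.35-fold, with a log2 change of 0.25 (SE 0.12, limma adjusted p = 0.283, or 0.124 with the block). COL5A3 was higher in the silenced library of all 3 same-numbered pairs although the groups overlap. Its mean went from 0.679 ± 0.359 to 1.48 ± 0.701 RPKM, 2.19-fold, with a log2 change of 0.73 (SE 0.30, limma adjusted p = 0.241, or 0.0260 with the block, and 0.000220 to 0.621 over the alternatives). COL27A1 was lower in the silenced library of all 3 pairs, with a log2 change of -0.21 (SE 0.14, limma adjusted p = 0.430). COL16A1 was higher in the silenced library of all 3 pairs, in KYSE510 too, with a log2 change of 0.15 in KYSE150 (SE 0.14, limma adjusted p = 0.562).

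The abundant collagen genes had small differences with wide errors. COL4A1 changed by -0.05 (SE 0.17), COL4A2 by 0.06 (SE 0.15), COL7A1 by 0.14 (SE 0.19) and COL12A1 by -0.01 (SE 0.14) on the log2 scale, with limma adjusted p from 0.744 to 0.994. COL18A1 changed by 0.34 (SE 0.19, limma adjusted p = 0.349), and by 0.57 (adjusted p = 0.0443) without replicate 3 of the KYSE150 controls. COL5A1 had 7 reads in the control libraries and 2 in the silenced ones, so no change in it was detectable at this depth. Among genes that were not tested, COL13A1 had every silenced KYSE150 library above the controls, at 0.0780, 0.0930 and 0.168 RPKM in controls, then 0.192, 0.302 and 0.238 with silencing. The summed level of the 8 squamous epithelial markers was 603 to 1133 RPKM in KYSE150 controls and 892 to 2041 in silenced libraries. KRT5 was the largest part of it, at a mean of 766 RPKM over the 6 KYSE150 libraries. Of the 8, 0 passed without the block, where 0.499% of all genes did, and 5 with it, where 6.7% did (limma, threshold 0.05). The depth difference and these markers lie beside every KYSE150 change above, and their part in it was not tested.

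In KYSE510, COL5A1 had the highest change of the tested collagen genes on the log2(RPKM + 0.5) scale, which is the value that brought the set forward. It went from 2.71 ± 0.231 to 4.56 ± 0.148 RPKM, 1.68-fold, with a log2 change of 0.66 (SE 0.09), and every silenced library lay above every control. COL4A2 went from 6.83 ± 1.37 to 9.64 ± 0.506 RPKM (1.41-fold, log2 change 0.48, SE 0.15). COL28A1 went from 0.903 ± 0.132 to 1.39 ± 0.318 RPKM (1.54-fold, log2 change 0.42, SE 0.13). COL5A3, at a much lower level, went from 0.0860 ± 0.0194 to 0.251 ± 0.152 RPKM, which is 2.92-fold by the group means and a log2 change of 0.34 (SE 0.30). These groups did not overlap, nor did those of COL4A1, COL4A6 and COL5A3, so that 6 of 17 were placed so where 5.22% of all genes were. Among the 26 collagen genes not tested, 4 were placed above in the same way and 2 below, COL11A1 and COL3A1. COL11A1 had 225 reads in the KYSE510 controls and 137 in the silenced libraries, and COL3A1 had 47 and 26. Nothing is read from these placements, since this difference chose the set. The type V partner COL5A2 changed by 0.13 (SE 0.14) and COL27A1 by -0.25 (SE 0.14). Over all genes, 0.0393% passed the limma threshold in KYSE510.

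**Figure D4:**
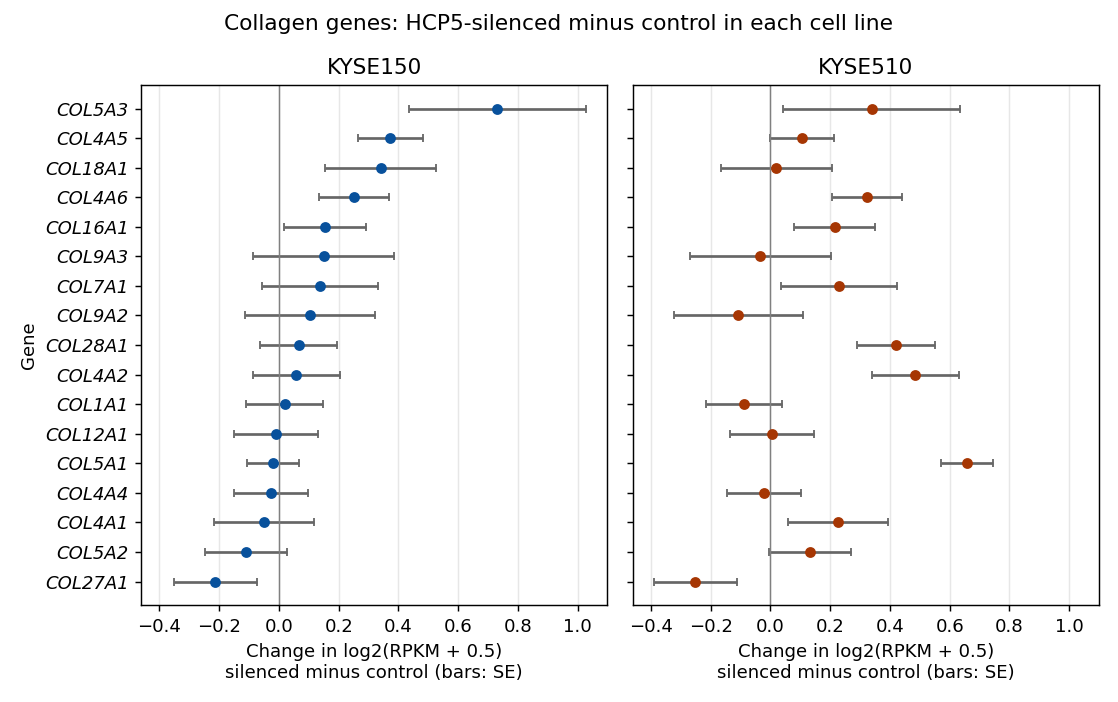
Change in each tested collagen gene, silenced minus control, on the log2(RPKM + 0.5) scale with bars of 1 SE, for KYSE150 (left) and KYSE510 (right, the difference that chose the set). COL5A3 and COL4A5 lie highest in KYSE150, at 0.73 and 0.37, and COL5A1 lies highest in KYSE510 on this scale, at 0.66.

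Collagen chains are hydroxylated, folded, exported, trimmed and cross-linked by a shared set of proteins, and 29 of 36 listed genes of this kind were tested. Between the lines 25 of the 29 passed the limma test, 11 higher and 14 lower in KYSE510, beside 72.8% for all genes. The count holds genes that reached the minimum level in 1 line only, such as SPARC, TLL1, LOX and FKBP10. Nothing is read from it or from the p-values of such genes between the lines. The largest differences went both ways. SPARC, a matrix protein that binds collagen, averaged 0.0493 ± 0.0157 RPKM in KYSE150 and 32.4 ± 3.74 in KYSE510 (SD, n = 6 each; log2 difference 5.89, SE 0.06, limma adjusted p = 2.37e-14). TLL1, a protease that trims procollagen ends, averaged 0.0168 and 1.79 RPKM (log2 difference 2.13, limma adjusted p = 1.76e-09). The cross-linking enzymes LOXL3 and LOX were also higher in KYSE510, at 0.708 and 0.0350 RPKM in KYSE150 against 3.27 and 1.18 (log2 difference 1.64 for each, limma adjusted p = 4.24e-10 and 3.01e-08). Their relatives LOXL1 and LOXL4, named after their values were seen, were higher in KYSE150 (log2 differences -0.72 and -0.87, limma adjusted p = 0.000108 and 3.59e-06).

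Of the collagen-making genes higher in KYSE150, FKBP10, P3H2 and PLOD3 lay farthest apart between the lines. FKBP10, a chaperone needed for cross-linking, averaged 20.9 ± 2.14 RPKM in KYSE150 and 0.0396 ± 0.0132 in KYSE510 (log2 difference -5.30, SE 0.07, limma adjusted p = 6.78e-14). P3H2, which hydroxylates prolines of type IV chains, averaged 29.3 ± 2.13 and 1.24 ± 0.369 RPKM (log2 difference -4.12, limma adjusted p = 1.42e-10). PLOD3, a lysine hydroxylase that also adds sugars, averaged 10.0 ± 1.08 and 1.55 ± 0.0753 RPKM (log2 difference -2.36, limma adjusted p = 1.47e-10). SERPINH1, the collagen chaperone of the endoplasmic reticulum, averaged 35.7 ± 7.21 and 21.0 ± 1.98 RPKM (log2 difference -0.73, SE 0.11, limma adjusted p = 0.000118). P4HB, the shared subunit of the prolyl 4-hydroxylases, averaged 75.5 ± 6.50 and 66.1 ± 3.48 RPKM (log2 difference -0.19, SE 0.06, limma adjusted p = 0.0166, which rose to 0.217 with median centring). The lysine hydroxylases PLOD1 and PLOD2, named after their values were seen, had the opposite order to PLOD3 (log2 differences 1.02 and 1.24, limma adjusted p = 1.46e-06 and 1.30e-08). Exons shared with a gene on the opposite strand made up 7.89% of SPARC, 7.56% of PLOD3 and 9.98% of P4HB. LOXL3 shared 14.3% of its exon length with HTRA2 and 4.95% with DOK1, both on the opposite strand.

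In silenced KYSE150 cells 0 of the 29 collagen-making genes passed the limma test and 4 had an unadjusted p below 0.05, with 23 upward and a median change of 0.10. Over all 17823 genes tested, 0.499% passed, 3224 had an unadjusted p below 0.05, 66.1% were upward and the median was 0.08. With the replicate block 1 of the 29 passed, where 6.7% of all genes did. That gene was P4HA2, a catalytic subunit of prolyl 4-hydroxylase, which was named after its values were seen. Its control libraries had 3.76, 3.72 and 3.70 RPKM, its silenced libraries 5.29, 5.26 and 5.08 (log2 change 0.43, SE 0.10, limma adjusted p = 0.0789, or 0.0458 with the block). Its groups are far apart, and 6.45% of its exon length is shared with P4HA2-AS1. The change in SERPINH1 was 0.28 ± 0.16 (SE) and that in P4HB 0.09 ± 0.09, with limma adjusted p of 0.367 and 0.620.

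Cells bind collagen through integrins, discoidin domain receptors and a few others, and 6 of 11 listed receptor genes were tested. Between the lines 4 passed the limma test, 2 higher and 2 lower in KYSE510, beside 72.8% of all genes, and ITGB1 and ITGA2 did not. The count holds ITGA1, which reached the minimum level only in KYSE510, and MRC2, which reached it only in KYSE150, so nothing is read from it. DDR1, a receptor kinase for several collagens, averaged 24.1 ± 6.07 RPKM in KYSE150 and 14.4 ± 1.08 in KYSE510 (log2 difference -0.70, SE 0.11, limma adjusted p = 0.000150). ADGRG1, an adhesion receptor for type III collagen, averaged 5.38 ± 1.02 and 7.11 ± 0.433 RPKM (log2 difference 0.39, SE 0.10, limma adjusted p = 0.00515). ITGA2 and ITGB1, the 2 chains of a collagen-binding integrin, differed by 0.31 ± 0.18 and 0.20 ± 0.09 (SE) on that scale, with limma adjusted p of 0.142 and 0.0611. The ITGB1 value passed under 6 alternatives, among them 0.00428 with median centring, and the ITGA2 value passed without replicate 2 of the silenced KYSE510 libraries (0.0191).

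In silenced KYSE150 cells 0 of the 6 receptor genes passed, 2 had an unadjusted p below 0.05, and 3 passed with the replicate block, DDR1, ITGA2 and MRC2 (limma). Over all 17823 genes tested, 0.499% passed, 3224 genes had such an unadjusted p and 6.7% passed with the block. DDR1 control libraries had 17.7, 17.8 and 25.8 RPKM, silenced libraries 24.8, 24.6 and 34.1 (log2 change 0.44, SE 0.16, limma adjusted p = 0.199, or 0.0195 with the block). ITGA2 control libraries had 1.59, 1.25 and 1.54 RPKM, silenced libraries 2.33, 2.05 and 2.51 (log2 change 0.52, SE 0.25, limma adjusted p = 0.308, or 0.0385 with the block). DDR1 overlapped between the groups through control replicate 3, and ITGA2 did not overlap. MRC2, an endocytic collagen receptor named after its values were seen, changed by 0.55 (SE 0.16, limma adjusted p = 0.129, or 0.0493 with the block).

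**Figure D5:**
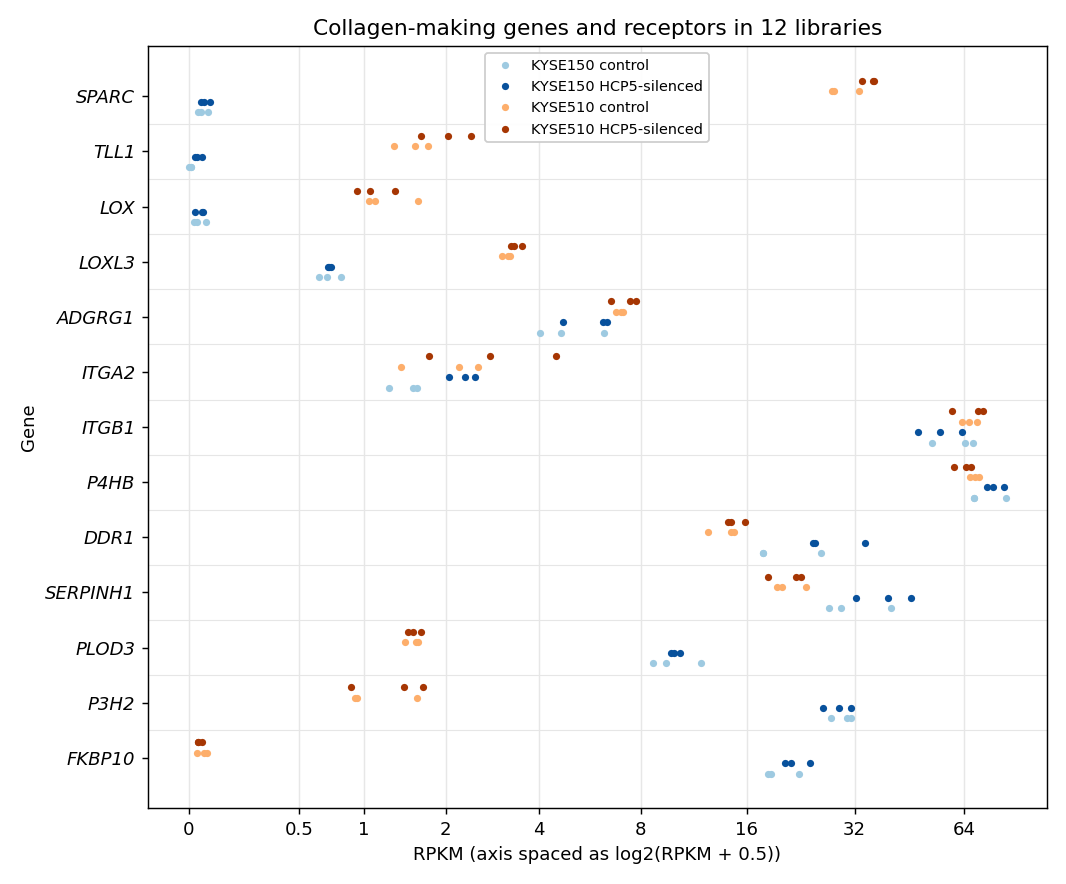
RPKM of 13 collagen-making and collagen receptor genes in each library (1 point per library, colours stand for the 4 groups, the axis is spaced as log2(RPKM + 0.5)). SPARC, TLL1 and LOX lie near 0 in KYSE150, FKBP10 lies near 0 in KYSE510, and P4HB and ITGB1 are close in all groups.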

How the data were processed

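RNA was sequenced from 12 libraries of 2 cell lines, and the authors deposited 1 table of RPKM values for 38516 genes. Per the submitters' processing notes HISAT2 and DESeq were used with GRCh38, and the roles and versions of these tools are not given in the sources used here. In all 12 libraries 100% of the RPKM values converted to whole reads within 0.01 read, and those reads served for counts, 95% exact Poisson intervals and an alternative test. Groups came from the labels for cell line and treatment. The members and lists were chosen with earlier results of these data known.

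Genes with at least 0.5 RPKM in at least 3 libraries (17823) were tested with limma 3.58.1 in R 4.3.3 on log2(RPKM + 0.5), with 4 group means, a trend in the prior variance, 8 residual degrees of freedom and Benjamini-Hochberg adjustment over all genes at 0.05, two-sided. A fold change on this scale understates the change of low genes. The line comparison set the 6 KYSE510 libraries against the 6 KYSE150 libraries. On simulated data the KYSE150 test recovered 85% of genes changed by 1 log2 unit and 99% of those changed by 2, and the line test recovered 100% of both (17823 genes each). The simulation gave all genes the same spread, and the changed genes all averaged at least 1 RPKM. Recovery was not measured for lower genes, for genes with a wider spread or for smaller changes. Same-numbered control and silenced libraries had deviations that correlated at 0.147 to 0.415 over 6 pairs, against -0.385 to 0.184 over the other 12, so the numbers were taken to pair the libraries and the block was fitted as an alternative, with 4 residual degrees of freedom.

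The genes named with values in every library were HCP5, COL5A1 and the collagen genes with a group mean of at least 1 RPKM, which gave 16 collagen genes. From the lists of collagen-making genes and receptors, those past the threshold in KYSE150 silencing were named. So were up to 3 per direction farthest apart between the lines, among genes past the threshold with a group mean of at least 1 RPKM. SERPINH1, P4HB, LOX, ITGA2, ITGB1 and DDR1 were named whatever their values. Other pseudocounts, filters, scalings, voom on recovered reads, 1 line alone and each library left out were tried. Replicates of a group differed by more than sampling noise, with a chi-square per gene of 10.3 to 36.6. Promoter sequences are RefSeq's.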

Additional observations from a re-analysis of the deposited data

How the results depend on the processing

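All 16 collagen genes that passed between the lines passed under every alternative in which they were tested, in the same direction. Some of them passed the filter through the line where they are high, so for those nothing is read from this. COL18A1 ran from -0.050 (without KYSE150 control replicate 2) to 0.19 with 1 library left out and was -0.081 in silenced libraries only. The count of collagen genes called between the lines went from 16 to 28 with no filter, where the share of all genes went from 72.8% to 43.4%. It stayed at 16 with any 1 library left out. For the same reason these counts are given as a description only. Receptors called between the lines went from 4 to 2 with a filter of 1 RPKM, where 75.0% of all genes passed. With 1 library left out, receptors called ran from 4 to 6, and genes called ran from 12535 to 12896 (70.3% to 72.4%).

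In KYSE150 silencing, 89 genes passed, 154 with quantile normalization, 1194 with the replicate block, 3381 with the block and voom on recovered reads, 7 with that line's libraries alone, and 15 (without silenced replicate 3) to 1287 (without control replicate 3) with 1 library left out. Collagen genes called were 2 with the block, 4 with the block and voom, and 0 to 1 with 1 library left out (COL18A1 without control replicate 3). Collagen-making genes called were 1 with the block, 8 with the block and voom and 0 to 3 with 1 library left out. Receptors called were 3 with the block, 3 with the block and voom and 0 to 1 with 1 library left out. Both upper values came without control replicate 3. Of all genes tested, 6.7% passed with the block, 19.0% with the block and voom and 7.22% without control replicate 3. The genes tested were 17 collagen genes, 29 collagen-making genes and 6 receptors, and nothing is read from their counts. The block changed no other call among the collagen genes named.

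Changes near 0 turned sign in KYSE150 silencing, none of them past the threshold. With 1 library left out, COL12A1 ran from -0.095 to 0.107, COL4A1 from -0.23 to 0.058, COL4A2 from -0.063 to 0.17, COL7A1 from -0.045 to 0.31 and COL5A1 from -0.033 to 8.0e-05. With median centring, COL28A1 was -0.063, COL4A2 -0.072, COL9A2 -0.026 and P4HB -0.043, and with quantile normalization COL28A1 was -0.0049. The cause was not tested.

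In KYSE510 silencing, where 7 genes passed, 20 passed with the replicate block. Alternatives chosen after seeing the data gave 3 with a pseudocount of 0.1, 44 with no filter, 11 with quantile normalization, 397 with the block and voom, 0 with that line's libraries alone (limma, 1338 at an unadjusted p below 0.05), and 2 to 7 with 1 library left out. The RPKM minimum kept 26 collagen genes out of the tests. With no filter 12 of them were called between the lines, beside 43.4% of all genes, and nothing is read from that count. Depth limits the 8 of the 26 that had fewer than 10 reads in all.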
